A study of Mus musculus with 4 samples.

Results

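The 214 genes described here are those whose introns were read in the library Prmt5 KO 2 and almost not at all in either Control library. They were chosen from a table of 46517 rows, each a gene region with its exon and intron reads. A row had to have annotated exons, an intron length (region minus exons) of over 2000 and up to 50000 bases and at least 20 unique exon reads in each library, which 5696 rows met, called rows in range below. Of these, a member had at least 5 unique intron reads in Prmt5 KO 2 and at most 1 over Control 1 and Control 2 together. Reads in Prmt5 KO 1 played no part in the choice. The difference between Prmt5 KO 2 and Control is therefore a consequence of the choice and is given without a test, while Prmt5 KO 1 is the library in which the gain can be looked for.

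The libraries came from invariant natural killer T (iNKT) cells, T cells with a semi-invariant receptor for lipids presented by CD1d, from the thymus of C57BL/6J mice. They belonged to stage 1, which the labels define by the absence of CD24, of NK1.1 and of T-bet. The 2 libraries labelled Prmt5 KO carried the genotype Prmt5 flox/D Cd4-Cre, in which the recombinase is driven by a Cd4 promoter active in developing T cells. The 2 Control libraries carry 1 label that names both Prmt5 flox/D and Prmt5 flox/+ Cd4-Cre, without saying which library had which. The mouse ages and the number of mice per library are not given, and the spread between libraries may be technical. cDNA was made from total RNA with a low-input SMART-seq kit, and all libraries share a sequencing run name.

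PRMT5 places symmetric dimethyl groups on arginines, among them those of the Sm proteins, which form the core of the spliceosomal snRNPs. The spliceosome removes introns from pre-mRNA, and a transcript whose intron stays in can be held in the nucleus or degraded. Intron reads in total RNA can come from unspliced transcripts or from other sources, which the table does not separate. It gives 1 summed intron count per gene and does not say which intron a read fell in.

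Most members have several introns, but in 8 of the 141 whose exon length matched GENCODE M21 within 1 base the longest gap between exons made up at least 90% of the intron length. In 3 of these, that gap is the gene's entire intronic sequence and 1 annotated intron outside untranslated regions, so the intron reads can be placed. The sequence formed when that intron is removed is shown for these genes, 15 bases of each exon on the gene's strand. The 6 capitals are the 3 bases on either side of the junction.
Tmem115: tgcggagcgcagAAGGCAactagccctaaa
A430046D13Rik: agcttgagtaaaAAGATGctgatcagctgg
Gm14718: ttgctatctgacTTGGTCcagctcagcact
The intron of the Golgi membrane protein gene Tmem115 spans chr9:107535330-107537864 (GRCm38, plus strand, 2535 bases, within the coding part). It had 2 unique intron reads in Prmt5 KO 1 and 22 in Prmt5 KO 2, against 0 in Control 1 and 0 in Control 2. The intron of the noncoding gene A430046D13Rik (chr10:128499527-128502408, plus strand, 2882 bases) had 3 and 6 reads in Prmt5 KO 1 and 2, against 1 and 0 in Control 1 and 2. That of the antisense gene Gm14718 (chrX:57200772-57203755, plus strand, 2984 bases) had 0 and 11 reads in Prmt5 KO 1 and 2, against 0 in each Control. These 3 introns had fewer reads in Prmt5 KO 1, the deepest library, than in Prmt5 KO 2. The intron of Rpp38 is also the gene's entire intronic sequence but lies in an untranslated region. That intron had 20 and 16 reads in Prmt5 KO 1 and 2, against 0 in each Control. The choice required reads in Prmt5 KO 2 but not in Prmt5 KO 1. Over all 214 members the median was 25 unique intron reads in Prmt5 KO 1 and 12 in Prmt5 KO 2.

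Depth was 13240293 and 5355378 exon reads in Prmt5 KO 1 and 2, against 5571860 and 4600799 in Control 1 and 2. Intron reads are therefore given as raw unique reads or as RPM, here unique reads per 1000000 total exon reads of the library. A count of 0 allows up to 3 reads, and such limits and all intervals below cover counting error only. T cell markers summed to between 6634 and 8768 RPM of exon reads and iNKT markers to between 1134 and 1816 in the 4 libraries, with no gene of either list at 0 in all libraries, whereas B cell markers reached at most 4.11. Mast and progenitor markers (Kit, Cpa3, Mcpt4) summed to 15.1 and 22.4 RPM in Prmt5 KO 1 and 2, against 2.15 and 0 in Control 1 and 2, with 1 of 3 at 0 in every library. Myeloid markers (Lyz2, Csf1r, Itgam, Adgre1, Cd68) summed to 16.1 and 7.66 in Prmt5 KO 1 and 2, against 1.97 and 1.30 in Control 1 and 2, with 2 of 5 at 0 in every library. Thymic epithelium markers summed to 6.42 and 7.47 RPM in Prmt5 KO 1 and 2, against 2.51 and 0 RPM in Control 1 and 2, with 2 of 5 at 0 in every library. NK cell markers summed to 2.27 and 4.29 RPM in Prmt5 KO 1 and 2, against 1.44 and 0.435 RPM in Control 1 and 2, with 1 of 4 at 0 in every library. Dendritic cell markers overlapped, at 2.57 and 0.747 RPM in Prmt5 KO 1 and 2, against 1.26 and 1.74 in Control 1 and 2. Erythroid markers did too, at 0.151 and 0.934 in Prmt5 KO 1 and 2, against 0.359 and 0 in Control 1 and 2. Markers of double-positive thymocytes were at 64.8 and 22.6 RPM in Prmt5 KO 1 and 2, against 51.3 and 53.3 RPM in Control 1 and 2, and so differed between the Prmt5 KO libraries. The part of other cells in the intron reads was not tested.

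Prmt5 itself is a member (chromosome 14, 54507187 to 54517525, minus strand, 6381 intronic bases). It had 11 and 35 unique intron reads in Prmt5 KO 1 and 2, against 0 and 1 in Control 1 and 2. Its unique exon reads numbered 1279 and 604 in Prmt5 KO, against 555 and 424 in Control. Intron reads thus made up 0.853% and 5.48% of its reads in Prmt5 KO 1 and 2, against 0% and 0.235% in Control 1 and 2. The exon level of the targeted gene overlapped between groups, at 86.7 and 119 CPM (the same unit for exon counts, with library sizes adjusted by TMM) in Prmt5 KO and 98.3 and 99.8 CPM in Control. The labels do not say which exons are floxed, so neither count checks the deletion, and the libraries are named as labelled.

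In Prmt5 KO 1, the library not used in the choice, 211 of the 214 members had at least 1 unique intron read (98.6%, exact 95% binomial interval 96.0 to 99.7%) and 191 had at least 5 (89.3%, 84.3 to 93.1%). The background was similar, since 95.9% of the 5696 rows in range had at least 1 read in Prmt5 KO 1 and 91.6% had at least 5. The members stood above the 802 other rows in range with at most 1 Control intron read, of which 72.1% had at least 1 read and 56% at least 5. The median member had 25 reads in Prmt5 KO 1 (quartiles 11.2 and 42), the median of those 802 rows was 7, and that of all rows in range was 43. Had Prmt5 KO 1 been sequenced to the depth of Prmt5 KO 2, 95.3% of members would be expected to keep at least 1 read. For the 802 other rows this share was 65.8%, and for all rows in range 94.2%. Nearly all members thus had intron reads in Prmt5 KO 1, as nearly all rows in range had.

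**Figure D1:**
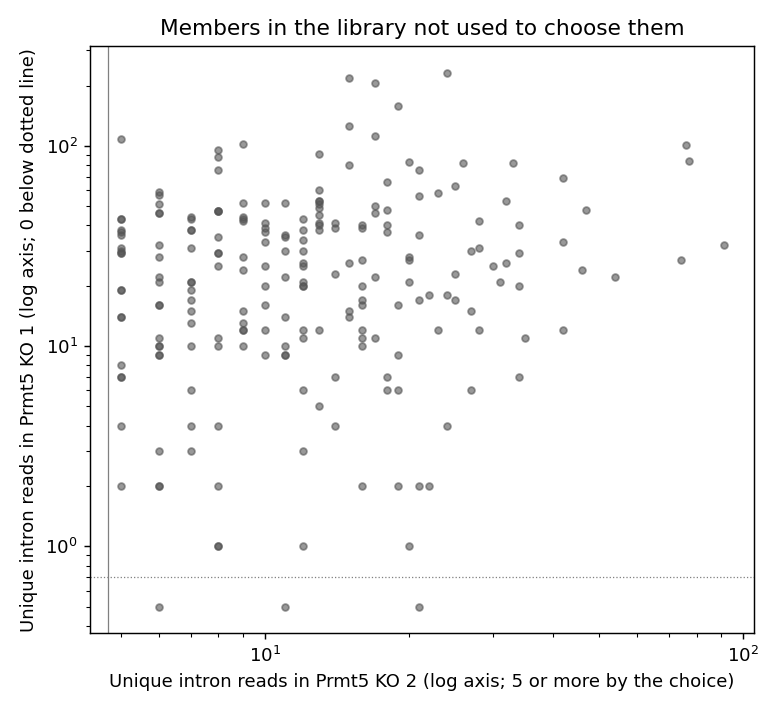
Each point is 1 of the 214 members, with its unique intron reads in Prmt5 KO 2 on the horizontal axis and in Prmt5 KO 1 on the vertical axis, both logarithmic. Members start at 5 reads in Prmt5 KO 2 by the choice, and the 3 members with 0 reads in Prmt5 KO 1 lie below the dotted line.

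Summed over the members, Prmt5 KO 1 had 6971 unique intron reads and Prmt5 KO 2 had 3289, against 66 and 47 in Control 1 and 2, the last 3 being fixed in part by the choice. Per 100 unique exon reads of the same genes these were 4.30 and 5.42 intron reads in Prmt5 KO 1 and 2, against 0.109 and 0.0933 in Control 1 and 2. Over all rows in range the same ratio was 5.17 and 3.55 in Prmt5 KO 1 and 2, against 1.77 and 2.63 in Control 1 and 2. In Prmt5 KO 1 the members therefore carried fewer intron reads per exon read than rows in range did as a whole, and in the Controls they carried far fewer, as the choice requires. The 802 other rows nearly without Control intron reads had 2.03 and 0.215 intron reads per 100 exon reads in Prmt5 KO 1 and 2.

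**Figure D2:**
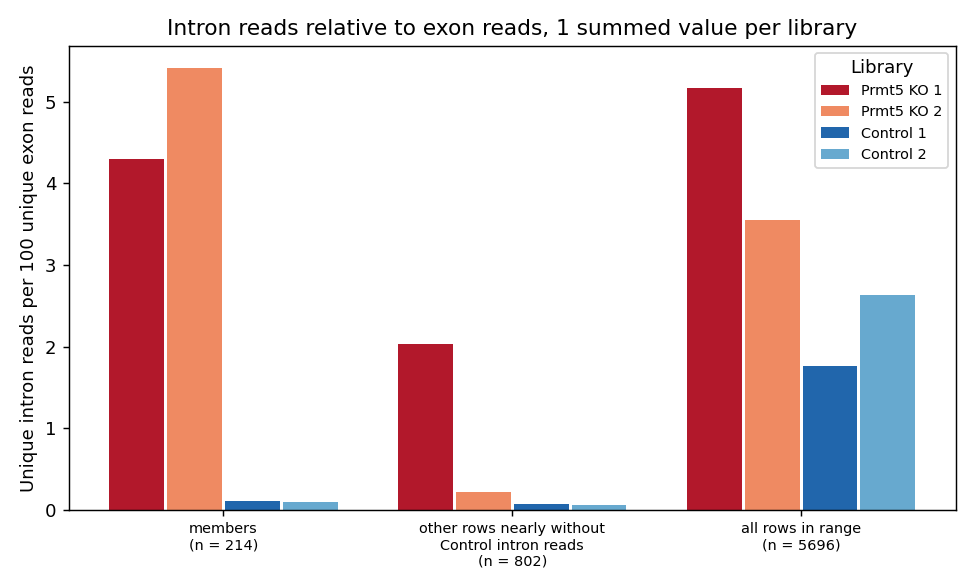
Bars give unique intron reads per 100 unique exon reads, summed over the rows of each set, for Prmt5 KO 1, Prmt5 KO 2, Control 1 and Control 2. In Prmt5 KO 1 the 214 members stand at 4.30, between the 802 other rows nearly without Control intron reads (2.03) and all 5696 rows in range (5.17).

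Intron reads in genes without exon reads also differed between the libraries. In 8654 silent genes, with introns of over 1000 bases in all and no exon read in any library and under 200 intron reads in each, Prmt5 KO 1 had 12.8 intron RPM per Mb of intron and Prmt5 KO 2 had 3.72, against 3.36 and 3.59 in Control 1 and 2. In the members that density was 166 in Prmt5 KO 1 and 193 in Prmt5 KO 2, against 3.72 and 3.21 in Control 1 and 2. In Prmt5 KO 1, which the choice did not use, the members lay 12.9-fold above the silent genes, against 6.15-fold for the 802 other rows and 23.2-fold for all rows in range. The densities in Prmt5 KO 2 and in the Controls are set in part by the choice. Silent genes that overlap another row were not left out, so their reads may include those of an expressed neighbour. The part of this background in the reads of Prmt5 KO 1 was not tested.

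Some counts below may hold reads of a neighbour. The region overlapped another row of the table for 80 members (37.4%), against 51.4% of the 802 other rows and 43.3% of all rows in range, and strand-specific counting is not stated, so reads of overlapping genes may be mixed there. Of the members named in the text, Wbscr22, Dap3, Clec2i, Timm44, Ublcp1, Ndufb5, Rbm18, Cox15, Cyb561, Krt10, Lnp, Srek1ip1, Mtif3 and Slc35f6 overlap another row.

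For description, 80 of the 214 members were sorted by hand into role groups after the values were seen. The share of each role among all rows in range was not counted, so the size of a group is no result. At least 5 reads in Prmt5 KO 1 were found in 89.3% of all members and 91.6% of all rows in range. Counts of members at 5 or more reads in a group are therefore given for description only. The 20 members of the mitochondrial group had 2 to 218 unique intron reads in Prmt5 KO 1 (median 34), and 19 had at least 5. Dap3, a protein of the small mitochondrial ribosomal subunit, had 218 and 15 intron reads in Prmt5 KO 1 and 2, against 0 in each Control. Timm44, part of the motor that imports proteins into the matrix, had 112 and 17 in Prmt5 KO 1 and 2, against 0 in each Control. Both genes were also higher in Prmt5 KO 1 in RPM, by 5.88-fold and 2.66-fold. Ndufb5 and Ndufs5 encode subunits of respiratory complex I. Ndufb5 had 91 and 13 intron reads in Prmt5 KO 1 and 2, against 0 in each Control. Ndufs5 had 32 and 91 in Prmt5 KO 1 and 2, the highest count of any member in Prmt5 KO 2, against 0 in each Control. Cox15, which takes part in making heme A for cytochrome c oxidase, had 27 and 74 in Prmt5 KO 1 and 2, against 0 in each Control. Intron reads made up 2.52% and 18.9% of its reads in Prmt5 KO 1 and 2. Mtif3, a mitochondrial translation initiation factor, was the lowest of the group in Prmt5 KO 1, with 2 reads, and had 6 in Prmt5 KO 2, against 1 and 0 in Control 1 and 2.

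The 11 members put into a group of ribosomal RNA, transfer RNA and translation had 7 to 232 unique intron reads in Prmt5 KO 1 (median 46). Wbscr22, a methyltransferase of 18S ribosomal RNA, had 232 intron reads in Prmt5 KO 1, the highest of any member there, and 24 in Prmt5 KO 2, against 0 in each Control. They were 14.6% and 6.38% of its reads in Prmt5 KO 1 and 2. Ddx27, an RNA helicase of ribosome assembly, had 125 and 15 in Prmt5 KO 1 and 2, against 1 and 0 in Control 1 and 2. Eif2b2, a subunit of the exchange factor that recharges eIF2, was high in both, at 84 and 77 in Prmt5 KO 1 and 2, against 0 in each Control. Its exon reads numbered 1708 and 702 in Prmt5 KO, against 593 and 529 in Control. Thumpd1, an adaptor of transfer RNA acetylation that was not put into the group and is not in its counts, had 102 and 9 in Prmt5 KO 1 and 2, against 1 and 0 in Control 1 and 2.

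The 13 members with roles in pre-mRNA processing had 6 to 59 unique intron reads in Prmt5 KO 1 (median 38), and each had at least 5. Srek1ip1, named for its partner, a splicing regulatory protein, had 56 and 21 intron reads in Prmt5 KO 1 and 2, against 0 in each Control. Its unique exon reads numbered only 168 and 47 in Prmt5 KO 1 and 2, against 71 and 67 in Control 1 and 2, and intron reads made up 30.9% of its reads in Prmt5 KO 2. Srsf9, a splicing factor of the SR family, had 59 and 6 in Prmt5 KO 1 and 2, against 1 and 0 in Control 1 and 2. Prpf18, which acts in the second step of splicing, had 40 and 18 in Prmt5 KO 1 and 2, against 0 and 1 in Control 1 and 2. The near-identical genes Mfap1a and Mfap1b, which encode a spliceosome protein, ordered the libraries differently. Mfap1a had 7 and 34 in Prmt5 KO 1 and 2, against 1 and 0 in Control 1 and 2. Mfap1b had 36 and 5 in Prmt5 KO 1 and 2, against 0 in each Control. Reads of the pair may have been split between the copies, so their counts are uncertain. Lists of splicing genes put together from their known roles held few genes that could be members. Of 12 Sm and LSm genes in range 2 had at most 1 Control intron read, of 9 minor spliceosome genes 4 had, and of 28 splice regulators 0 had. None of these is a member. Over all 5696 rows in range, 214 were members and 802 others had at most 1 Control intron read. With so few genes that could be members, their absence is no result. The Sm and LSm genes, the substrates of PRMT5 and their relatives, had 2.98 and 1.71 intron reads per 100 exon reads in Prmt5 KO 1 and 2, against 0.485 and 1.18 in Control 1 and 2, over the 12 that are in range. All rows in range had 5.17 and 3.55, against 1.77 and 2.63 in Control 1 and 2. The minor spliceosome genes in range had 10.4 and 5.53, against 3.11 and 2.55. For the splice regulators in range the values overlapped, at 6.06 and 2.90, against 1.52 and 3.36.

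Genes of the general transcription machinery gave 8 members, with 2 to 49 reads in Prmt5 KO 1 (median 23). Taf11, a subunit of TFIID, had 24 and 46 in Prmt5 KO 1 and 2, against 0 in each Control, and Polr3k, a subunit of RNA polymerase III, had 2 and 6, against 0 in each Control. The 10 zinc finger genes with Zfp symbols had a median of 18 reads in Prmt5 KO 1, and each had at least 5. In Zfp251, for example, 33 and 42 intron reads in Prmt5 KO 1 and 2, against 1 and 0 in Control 1 and 2, made up 4.78% and 41.2% of its reads in Prmt5 KO 1 and 2.

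DNA replication, repair and chromosome genes numbered 10, with 4 to 69 reads in Prmt5 KO 1 (median 17), and 9 had at least 5. Mcm2, a subunit of the replicative helicase, had 69 and 42 in Prmt5 KO 1 and 2, against 1 and 0 in Control 1 and 2. Its unique exon reads were many, with 7252 and 2749 in Prmt5 KO 1 and 2, against 3059 and 1546 in Control 1 and 2, so that the intron share was only 0.942% in Prmt5 KO 1.

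The 8 members with roles in immune signalling or survival had 10 to 207 reads in Prmt5 KO 1 (median 44.5). Clec2i, a C-type lectin of the cell surface, had 207 and 17 intron reads in Prmt5 KO 1 and 2, against 0 and 1 in Control 1 and 2. Bcl2l1, which encodes the survival protein BCL-XL, had 48 and 47 in Prmt5 KO 1 and 2, against 0 in each Control, or 7.87% and 12.1% of its reads in Prmt5 KO 1 and 2. Of its intronic sequence, 98.6% is a gap of 45844 bases between annotated exons at chr2:152782283-152828126 (GRCm38, minus strand). Tab2, an adaptor of the kinase TAK1, had 82 and 33 in Prmt5 KO 1 and 2, against 1 and 0 in Control 1 and 2, and Tab1, its partner, had 60 and 13, against 1 and 0. Fcer1g, the common signalling chain of Fc receptors, had 13 and 9, against 1 and 0. Its exon level was 53.8 and 136 CPM in Prmt5 KO 1 and 2, against 12.9 and 30.05 CPM in Control 1 and 2, the highest exon log2 fold change among the members. Mast and myeloid cells also use Fcer1g, and their markers were higher in both Prmt5 KO libraries as given above. Their part was not tested.

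Other members among those most read were spread over unrelated roles. Necap2, an endocytic protein, had 158 and 19 intron reads in Prmt5 KO 1 and 2, against 0 and 1 in Control 1 and 2. Ublcp1, a phosphatase of the nuclear proteasome, had 108 and 5, against 0 and 1. Zfand5, a zinc finger protein linked to the proteasome, was high in both, at 101 and 76, against 1 and 0. Atp6v1c1, a subunit of the vacuolar proton pump, had 95 and 8 in Prmt5 KO 1 and 2, against 0 and 1 in Control 1 and 2. Rbm18 had 88 and 8, against 0 in each Control. In RPM, Necap2, Ublcp1, Atp6v1c1 and Rbm18 were higher in Prmt5 KO 1 than in Prmt5 KO 2, and Zfand5 was lower, at 7.63 RPM in Prmt5 KO 1 and 14.2 RPM in Prmt5 KO 2. Among those most read in Prmt5 KO 2, Cables2 had 22 and 54 in Prmt5 KO 1 and 2, against 0 in each Control. Naa30, the catalytic subunit of an N-terminal acetyltransferase, had 12 and 42 in Prmt5 KO 1 and 2, against 0 in each Control. Ccdc69 had 29 and 34, against 1 and 0 in Control 1 and 2. The most extreme intron share in Prmt5 KO 2 was 58.5%, in Slc35f6, and in Prmt5 KO 1 33.9%, in Tbc1d13. Both rest on few unique exon reads, 22 for Slc35f6 in Prmt5 KO 2 and 39 for Tbc1d13 in Prmt5 KO 1. The choice required at least 20.

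**Figure D3:**
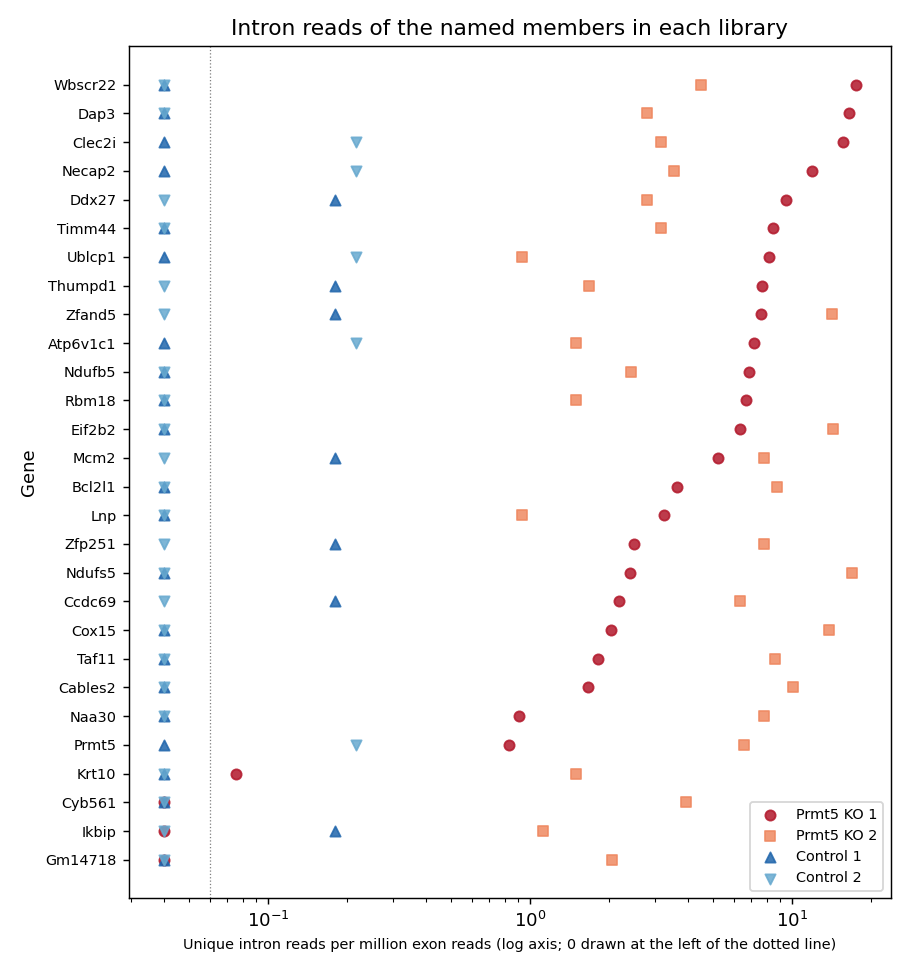
Unique intron RPM of the members named by rule, in Prmt5 KO 1, Prmt5 KO 2, Control 1 and Control 2, on a logarithmic axis with 0 drawn left of the dotted line. The order of Prmt5 KO 1 and Prmt5 KO 2 changes from gene to gene, and Control 1 and Control 2 are at 0 or 1 read by the choice.

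The members at the ends of the range were as follows. Cyb561 (a cytochrome of the b561 family), Gm14718 and Ikbip had 0 reads in Prmt5 KO 1 and 21, 11 and 6 in Prmt5 KO 2, against at most 1 in a Control. Krt10, a keratin with the shortest intron length of 2017 bases, had 1 and 8 in Prmt5 KO 1 and 2, against 0 in each Control. Lnp, an endoplasmic reticulum protein with the longest, 49991 bases, had 43 and 5 in Prmt5 KO 1 and 2, against 0 in each Control. In intron RPM, 95 members were higher in Prmt5 KO 1 than in Prmt5 KO 2 and 119 were lower. The median intron share of a member was 4.44% in Prmt5 KO 1 and 6.82% in Prmt5 KO 2, and 44 and 81 members were at 10% or more. The choice required reads in Prmt5 KO 2 but not in Prmt5 KO 1, so these comparisons lean towards Prmt5 KO 2. Over all rows in range, intron RPM summed to 30715 in Prmt5 KO 1 and 20081.5 in Prmt5 KO 2.

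Counts in Prmt5 KO 1 followed those in Prmt5 KO 2 at the low end and then levelled off. Of the rows in range with at most 1 Control intron read, 561 had 0 reads in Prmt5 KO 2, and 44.6% of these had at least 5 reads in Prmt5 KO 1 (median 3). With 1 to 2 reads in Prmt5 KO 2 the share was 80.9% (183 rows, median 13), and with 3 to 4 it was 87.9% (58 rows, median 18.5). Among the members it was 85.4% at 5 to 9 reads (82 rows, median 21), 92.9% at 10 to 19 (84 rows, median 25.5) and 89.6% at 20 or more (48 rows, median 26.5). Rows with 0 reads in Prmt5 KO 2 also had shorter introns, at a median of 7970 bases, against 12055.5 bases at 5 to 9 reads. Just outside the threshold, the 34 rows with 3 reads and the 24 rows with 4 reads had medians of 15.5 and 23.5 in Prmt5 KO 1, and just inside it the 19 rows with 5 reads and the 20 rows with 6 reads had medians of 29 and 16, so that no step was seen there. The 95 rows with 2 Control reads and at least 5 in Prmt5 KO 2 had a median of 29, and the 113 members with 1 Control read one of 28.

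**Figure D4:**
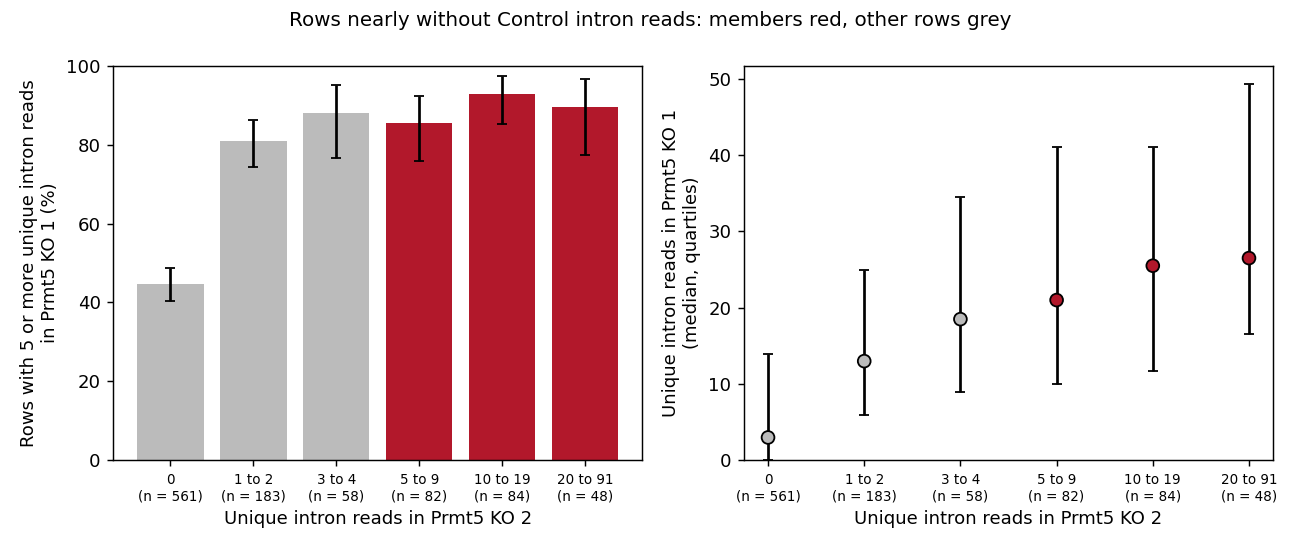
Rows in range with at most 1 Control intron read, grouped by unique intron reads in Prmt5 KO 2. The left panel gives the share with at least 5 reads in Prmt5 KO 1 with exact 95% binomial intervals, and the right panel the median reads in Prmt5 KO 1 with quartiles. The share is 44.6% at 0 reads and between 80.9% and 92.9% in all other groups.

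The difference between members and the 802 other rows in Prmt5 KO 1 was present at each intron length and exon level. With over 2000 and up to 5000 intronic bases, 82.1% of 39 members and 48.8% of 213 other rows had at least 5 reads in Prmt5 KO 1, and with 20001 to 50000 bases 97.9% of 47 members and 56.3% of 142 other rows did. With 20 to 199 unique exon reads in Prmt5 KO 1 the shares were 71.8% of 39 members and 43.9% of 223 other rows, and with 500 to 999 they were 95.8% of 48 and 63.7% of 168. All rows in range reached 82.0% at up to 5000 bases and 96.0% at 20001 to 50000 bases, close to the members of the same length.

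With the libraries in other roles, the thresholds chose very different numbers of rows. High in Prmt5 KO 1 and low in both Controls gave 640 rows, of which 390 (60.9%, 57.0 to 64.7%) had at least 1 read in Prmt5 KO 2, against 17.3% of the 376 remaining rows low in both Controls. The share over all 5696 rows in range was higher, with 78.2% having at least 1 read in Prmt5 KO 2. High in Control 1 and low in both Prmt5 KO libraries gave 2 rows, with 0 reads in Control 2. High in Control 2 and low in both Prmt5 KO libraries gave 6 rows, of which 2 had a read in Control 1. With thresholds scaled to depth the 4 selections held 167, 362, 2 and 9 rows, for Prmt5 KO 2, Prmt5 KO 1, Control 1 and Control 2 as the high library. With the unscaled thresholds, only 267 and 263 other rows were low in both Prmt5 KO libraries, beside those high in Control 1 or in Control 2. The other rows low in both Controls numbered 802 and 376, beside those high in Prmt5 KO 2 or in Prmt5 KO 1. The Control direction gave too few rows to set against the members.

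Choosing rows on 1 library of each group leaves 1 of each group unused, so that neither is lowered by the choice. Of 321 rows with at least 5 intron reads in Prmt5 KO 2 and 0 in Control 1, 261 had a higher rate in Prmt5 KO 1 than in Control 2 and 58 a lower one. Their mean rate per row was 2.89 intron RPM in Prmt5 KO 1, against 1.23 in Control 2, a ratio of 2.34 (2.23 to 2.46). Of 381 rows high in Prmt5 KO 2 and 0 in Control 2, 353 were higher in Prmt5 KO 1 than in Control 1, at 3.46 against 0.747, a ratio of 4.63 (4.40 to 4.88). All rows in range gave a ratio of 2.05 for Prmt5 KO 1 over Control 2 and 2.97 over Control 1.

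Rows chosen the opposite way showed ratios of the same size. The 223 rows with at least 5 reads in Control 1 and 0 in Prmt5 KO 2 stood at 3.62 in Prmt5 KO 1, against 1.27 in Control 2, a ratio of 2.86 (2.70 to 3.03), above the 2.34 of the rows gained in Prmt5 KO 2. The 245 rows high in Control 2 and 0 in Prmt5 KO 2 had a ratio of 4.27 (4.01 to 4.56) for Prmt5 KO 1 over Control 1, below the 4.63 of their counterpart. By row, 186 of the 223 and 221 of the 245 had a higher rate in Prmt5 KO 1 than in the unused Control, and 35 and 23 a lower one. Prmt5 KO 1 was thus higher than the unused Control whether the rows were gained or lost in Prmt5 KO 2. When Prmt5 KO 2 was the unused library, 811 rows high in Prmt5 KO 1 and 0 in Control 1 gave a ratio of 1.34 (1.28 to 1.39) over Control 2, the same as the 1.34 of all rows in range. The 1009 rows high in Prmt5 KO 1 and 0 in Control 2 gave 2.29 (2.19 to 2.39) over Control 1, against 1.94 for all rows in range. Each of these compares 1 library with 1 other, so no test between groups was made.

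**Figure D5:**
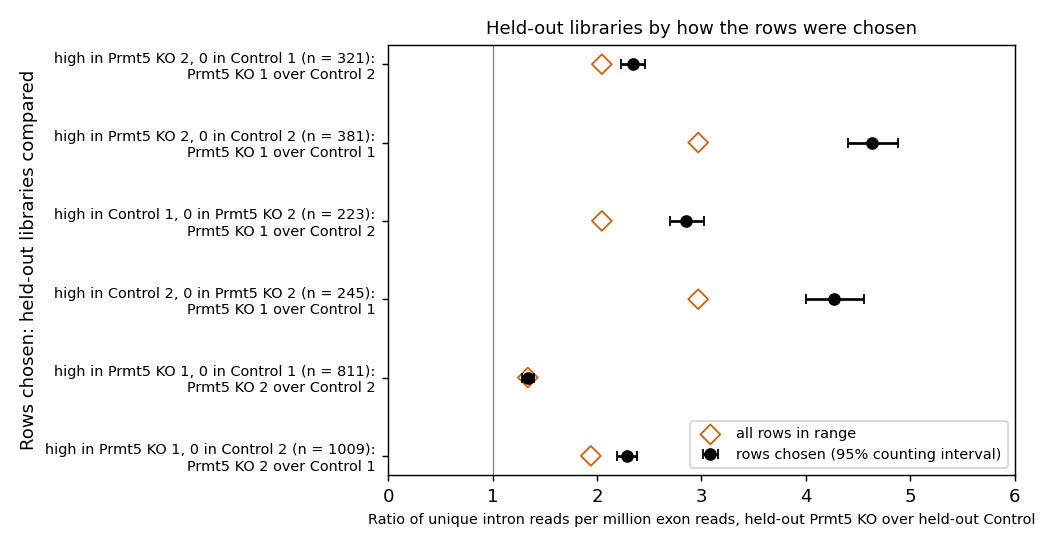
Ratio of unique intron RPM between the 2 libraries not used to choose the rows, Prmt5 KO over Control, for 6 ways to choose them. Points carry 95% counting intervals and diamonds give the same ratio over all rows in range. Rows high in Control 1 or 2 and 0 in Prmt5 KO 2 (2.86 and 4.27) show ratios as large as rows high in Prmt5 KO 2 and 0 in a Control (2.34 and 4.63).

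The exon levels of the members were compared next. The median exon log2 fold change (Prmt5 KO minus Control) was 0.06, against -0.00028 over all 10775 genes fitted, and 115 of 214 were positive. Of the members, 12 (5.61%) were above 1 and 9 (4.21%) below -1, against 9.95% and 7.81% of all genes. The choice required at least 20 unique exon reads in each library, which the fit over all genes did not. These shares are therefore not a like comparison. In edgeR's quasi-likelihood test no member passed an adjusted p of 0.05, where 0% of genes were called higher and 0.00928% lower, and 924 of 10775 genes had an unadjusted p under 0.05. DESeq2 called 93 of 10775 genes higher and 75 lower. Of the 214 members it called 2 higher, close to the share over all genes, and 0 lower. These were Fcer1g and Usp11 (log2 fold changes 2.15 and 1.53, adjusted p = 0.0199 and 0.0434). Usp11, a deubiquitinase, was at 108 and 96.7 CPM in Prmt5 KO, against 26.6 and 44.4 CPM in Control.

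Intron reads were also tested against exon reads of the same gene, over 5350 rows in range with at least 5 intron reads in all. The median log2 fold change of this ratio over all rows was 1.29 and 82.8% of rows were positive. The members' median was 5.08 and all 214 were positive, a direction that the choice fixes. No row passed an adjusted p of 0.05 in edgeR (0% called higher and 0% lower) or in DESeq2, and 335 rows in edgeR and 587 in DESeq2 had an unadjusted p under 0.05. With each read type scaled by its own totals, the median over all rows was 0.20 and that of the members 4.81.

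Exon-exon junction reads were 49.9% and 51.8% of the members' unique exon reads in Prmt5 KO 1 and 2, against 53.3% and 53.3% in Control 1 and 2. Over all rows in range they were 56.9% and 58.6% in Prmt5 KO, against 59.1% and 59.0% in Control. The members thus had a lower junction share than rows in range in all 4 libraries, Controls included.

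The annotation gives features that the choice did not use. Of 212 matched to GENCODE M21, 210 (99.1%) were protein-coding, as were 99.1% of all matched rows in range. An annotated transcript with a retained intron was present for 130 (61.3%), against 55.9% of the 802 other rows and 65.4% of all rows in range. The median intron length was 12063 bases (quartiles 6385 and 18588), against 8663.5 for the 802 other rows and 15131 for all rows in range. Members lay on 20 chromosomes, with 8 on the X (3.74%, against 2.76% of rows in range).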

How the data were processed

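The deposited table holds unnormalized read counts per gene, exon, exon junction and intron, as unique and total reads, which the authors made from single, trimmed reads per the file headers. The submitters' processing notes name mm10 and edgeR, while the mapper and annotation were not given in the sources used here. Libraries were grouped by their titles. Intron length is the region minus the exon length, and printed positions count from 1. Gene models and junction sequences come from GENCODE M21 (GRCm38, the assembly of mm10).

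The members, role groups and lists were chosen with earlier results of these data known. Members were named by rule: the 12 with most intron reads in Prmt5 KO 1, the 12 in Prmt5 KO 2, those at 0 in Prmt5 KO 1, the ends of the intron length range, and Prmt5. All other named genes were chosen after their values were seen. Total exon counts (filterByExpr, TMM) and unique intron against unique exon counts (library as block, both scaled by the exon libraries) were fitted over the whole table with edgeR 4.0.16 quasi-likelihood tests in R 4.3.3, and Benjamini-Hochberg adjusted p-values under 0.05 were called. DESeq2 1.42.0 was the other tool. Both fits were tested on simulated data, where the intron against exon fit missed most of the smaller changes put in. Intervals are exact at 95% (SciPy 1.17.1), and since reads carry no molecular identifiers they cover counting error only. P-values set the difference between groups against the spread between libraries.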

Additional observations from a re-analysis of the deposited data

How the results depend on the processing

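The share of members with an intron read in Prmt5 KO 1 was 98.6% and stayed within 98.0 to 98.9% under 8 other settings. It was 100% with at least 50 unique exon reads per library. At the depth of Prmt5 KO 2, added after the data were seen, it was 95.3%, against 94.2% of all rows in range. The share in Prmt5 KO 2 for rows chosen on Prmt5 KO 1 (60.9%) was 56.6% with 0 Control reads and 65.0% with total intron reads. The ratio of Prmt5 KO 1 over Control 2 for rows chosen on Prmt5 KO 2 and Control 1 (2.34) was 2.08 with total intron reads and 2.13 without overlapping rows, and 2.40 without the 10 richest rows, an alternative added after the data were seen. Leaving 1 Control out of the choice is what the choice on 1 library of each group does. The exon fit called 1 gene, and 168 with DESeq2 and 215 without a filter on low counts, the cause of which was not tested; with 1 library left out it called 1 to 37, namely 1 without Control 1, 4 without Control 2, 9 without Prmt5 KO 1 and 37 without Prmt5 KO 2. The replicate number pairs no samples by the labels; same-numbered libraries deviated together with r = 0.18 over 10775 genes, and with the replicate number as a block the exon fit called 362 genes, 3 members among them. The intron against exon fit called 0 rows under every alternative run, the replicate block and each library left out included (0 to 0). A count of 0 in any library allows up to 3 reads.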
